A study of Mus musculus with 173 samples.

Results

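The genes described here are 31 genes of sterol metabolism, taken by symbol from the 38561 genes of the deposited tables, and all 31 were found there. They comprise 19 enzymes of cholesterol synthesis, 4 genes of the sterol sensor (Insig1, Insig2, Srebf2 and Scap), the 2 liver X receptor genes Nr1h2 and Nr1h3, and 6 genes of sterol export, uptake and turnover (Abca1, Abcg1, Mylip, Stard4, Soat1 and Cyp46a1). Polyadenylated RNA was sequenced from 11 tissues of 8 heterozygous Q175 mice and 8 wild-type mice, all C57BL/6 and 6 months old, with 4 females and 4 males of each genotype. Q175 is a knock-in allele that puts an expanded run of CAG codons (nominally 175) into the mouse huntingtin gene Htt under its own promoter, so every tissue carries it; the labels name no other allele or treatment. The comparison asks which tissues respond to the expanded allele. The series describes the wild-type mice as littermates, but the labels place them in cages with mice of the Q20 line and their animal codes carry Q20, while Q175 mice shared cages with Q175 mice, so genotype, housing and colony cannot be told apart in any difference below.

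Cholesterol is built from acetyl-CoA through mevalonate, isoprenoid diphosphates, squalene and lanosterol. The genes of this route are switched on together by the transcription factor SREBP2, the product of Srebf2. When sterols are low, the escort protein SCAP carries SREBP2 from the endoplasmic reticulum to the Golgi, where proteases release it; when sterols are high, the INSIG proteins hold SCAP back, and liver X receptors, which bind oxysterols, switch on the export pumps Abca1 and Abcg1. Brain makes its own cholesterol, because lipoproteins of the blood do not cross into it, and much of that cholesterol goes into myelin made by oligodendrocytes.

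Deposited counts summed to 28 to 48 M (mega) per library, and each tissue had 16 libraries except gonadal white adipose (8 Q175, 7 wild type) and skin (8 Q175, 6 wild type). Htt, the altered gene, had 19.8 to 23.8 CPM (median 22.2) in Q175 libraries, against 26.7 to 31.5 CPM (median 30.7) in wild-type libraries in heart and 14.2 to 18.5 CPM (median 17.4) in Q175 libraries, against 19.9 to 25.7 CPM (median 22.3) in wild-type libraries in gastrocnemius. Its level was lower in Q175 in these tissues, in cerebellum and in hippocampus, past an adjusted p of 0.05 in edgeR's quasi-likelihood test, and the groups separated fully in heart, gastrocnemius and hippocampus only, of the 11 tissues. In 17 libraries values moved with gene length by more than 0.12 log2 units per doubling of length; among them were 1 wild-type female brainstem library (replicate 3) and 2 Q175 female hippocampus libraries (replicates 3 and 4). The 4 male Q175 gonadal adipose libraries held transcripts of the epididymis, 81.2 to 3029 CPM over 6 genes, against at most 2.03 CPM in wild-type libraries. In the 5 brain regions the neuron genes summed to 878 CPM or more and the oligodendrocyte genes to 3549 CPM or more in every library.

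In wild-type mice the synthesis genes were high in skin and brain and low in striated muscle. Per length, in the FPKM of the deposited table, skin held the highest mean of 12 of the 31 genes, 10 of them synthesis genes, while heart held the lowest of 14 and gastrocnemius of 13. Hmgcs1, which makes the substrate of the rate-limiting step of the pathway, had 142 ± 13.2 FPKM in skin (SD, n = 6), 124 ± 4.69 FPKM in brainstem (SD, n = 8) and 9.66 ± 0.715 FPKM in heart (SD, n = 8). The libraries of skin and brainstem overlapped for this gene, and those of gastrocnemius and heart overlapped at the low end. Fdps, which makes farnesyl diphosphate, had 202 ± 17.3 FPKM in skin and 61.9 ± 8.80 FPKM in brainstem, the next tissue, without overlap. Sqle, the squalene epoxidase, spanned 44.9 ± 3.52 FPKM in skin to 0.409 ± 0.155 FPKM in heart.

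Among the 5 brain regions, brainstem had the highest mean FPKM of 15 of the 19 synthesis genes, cerebellum of 3 and hypothalamus/thalamus of 1. Corpus callosum, the white matter tract, had a summed oligodendrocyte signal of 33209 CPM or more in wild-type libraries and ranked highest for none of them. Msmo1, which removes methyl groups from lanosterol intermediates, had 72.3 ± 9.59 FPKM in brainstem, 59.3 ± 13.002 FPKM in corpus callosum and 22.9 ± 1.71 FPKM in cerebellum; brainstem and corpus callosum overlapped. The genes outside synthesis had their own orders. Cyp46a1, the hydroxylase by which cholesterol leaves the brain, had 51.6 ± 5.06 FPKM in hypothalamus/thalamus and 50.3 ± 2.01 FPKM in hippocampus, which overlapped, and 15.03 ± 1.05 FPKM in cerebellum, the lowest brain region, against 0.701 ± 0.224 FPKM in skin, the highest peripheral tissue. Nr1h3, the liver X receptor of fat and macrophages, ran the other way, with 51.1 ± 4.08 FPKM in gonadal white adipose and 1.37 ± 0.263 FPKM in hippocampus. Insig1 was highest in intestinal white adipose (73.4 ± 27.7 FPKM), gonadal white adipose (70.9 ± 40.3 FPKM) and brainstem (67.1 ± 4.65 FPKM), and these 3 overlapped.

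**Figure D1:**
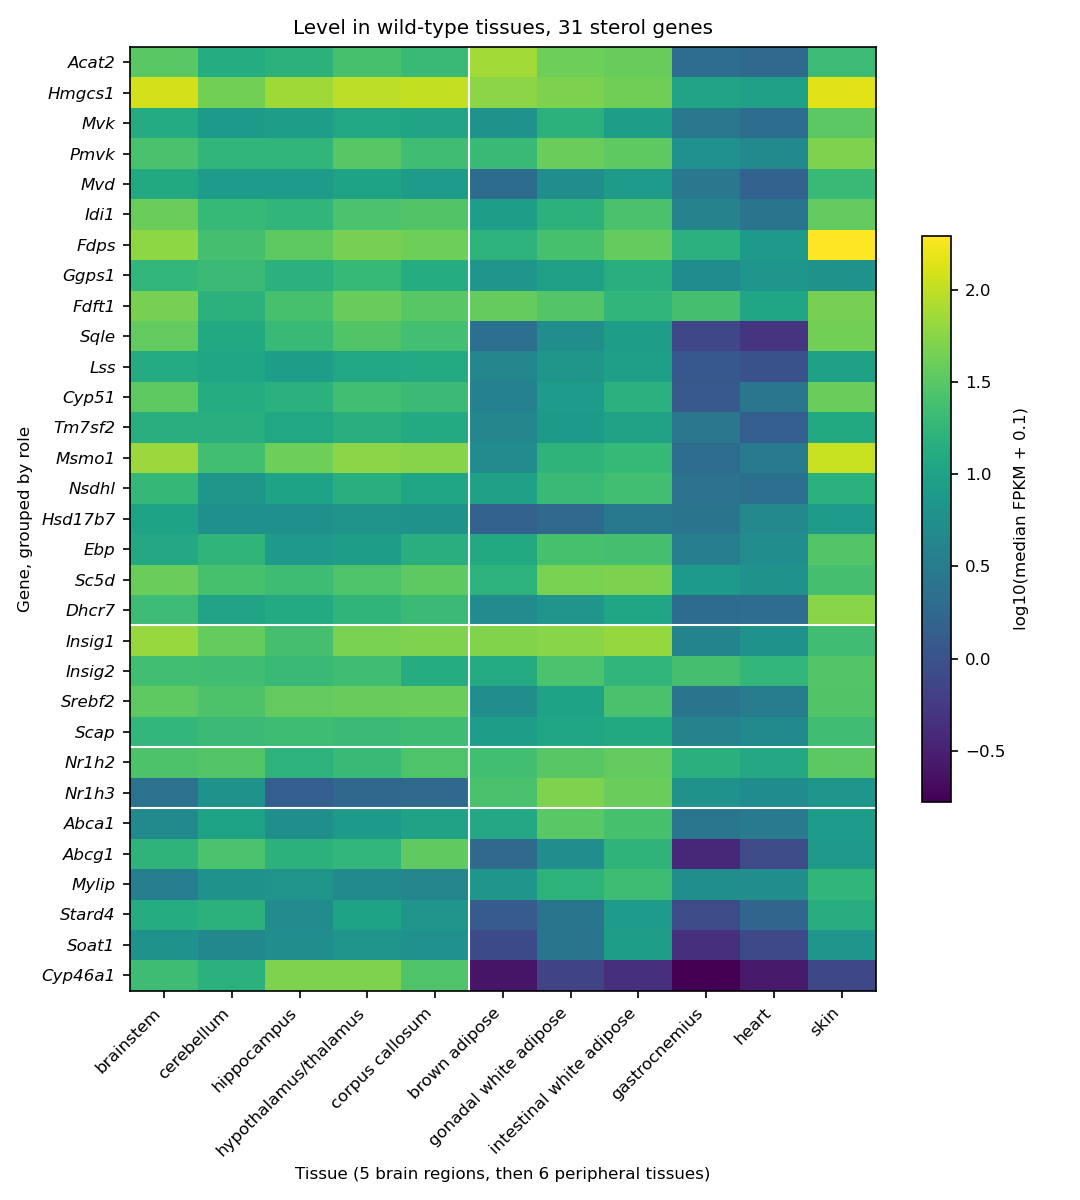
Levels of the 31 genes in wild-type mice: each cell is log10 of the median FPKM plus 0.1 over the 6 to 8 libraries of a tissue (columns, brain regions left of the line), with genes in rows grouped by role (synthesis, sensing, receptors, export and turnover). Skin is bright for most synthesis genes, heart and gastrocnemius are dark, and Cyp46a1 is bright in the brain regions and dark elsewhere.

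Set against 6 peripheral tissues in wild-type mice (limma voom with the animal as a correlated block, each tissue weighted equally), 29 of the 31 genes differed in the 5 brain regions at an adjusted p under 0.05; 92.2% of all 19928 genes tested did so, so the count is near the background. Of the 29, 18 were higher and 11 lower, as were 43.5% and 48.7% of all genes. The median of all genes was itself 0.44 log2 higher in brain, and RLE scaling moved that median by 0.14 and FPKM values by 0.32, so differences are given relative to it. Relative to that median, 17 members were higher in brain and 13 lower under TMM, RLE, FPKM and unfiltered values, and Insig1 changed side. Cyp46a1 was higher than the median of all genes by 3.78 to 5.97 log2 units over these settings, Abcg1 by 1.66 to 2.24, Sqle by 1.42 to 1.91 and Msmo1 by 1.19 to 1.38. Srebf2, the regulator, was 1.04 to 1.23 above it. Below it were Nr1h3 (-3.78 to -3.03), Mylip (-2.10 to -1.67), whose product marks lipoprotein receptors for degradation, and Abca1 (-1.46 to -1.14).

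Between genotypes, 53 of 340 tested pairs of gene and tissue passed an adjusted p of 0.05 in edgeR's quasi-likelihood test (p-values adjusted over all genes of a tissue): 44 were lower and 9 higher in Q175. Brainstem held 20 of the 53 and cerebellum 12. Insig1 was called in 5 tissues, lower in each, and no other member in more than 3. Ggps1, which makes geranylgeranyl diphosphate on a side branch, Nr1h2 and Mylip were called nowhere. Fold changes below are log2 of Q175 over wild type ± SE; CPM values are on the TMM scale. The tissues come from the same 16 mice and are not independent of each other. In bulk tissue, fewer cells of a type and less RNA per cell cannot be told apart.

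**Figure D2:**
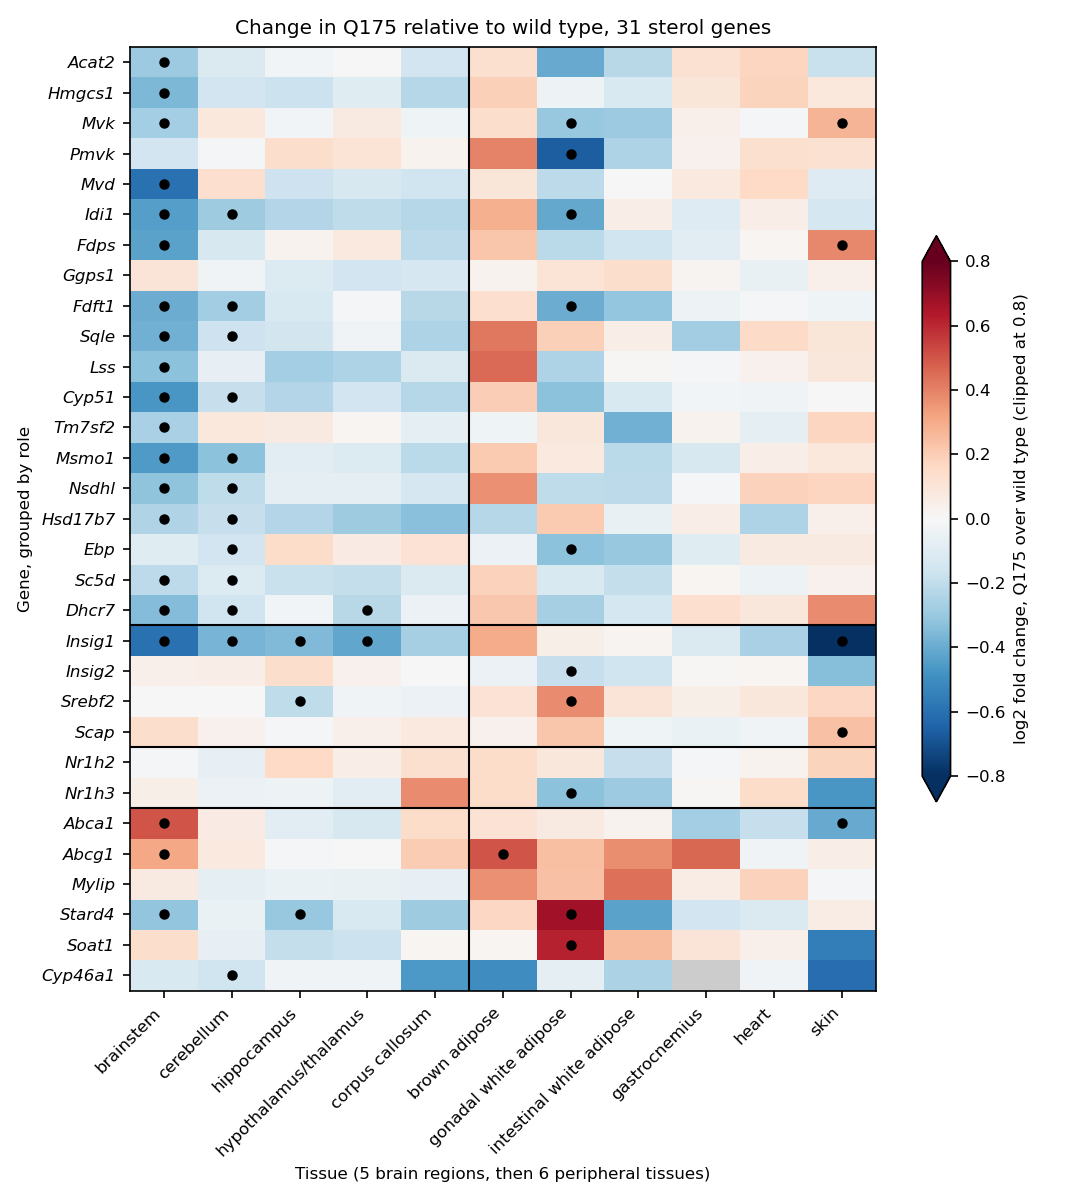
Log2 fold change, Q175 over wild type, of the 31 genes (rows, grouped by role) in 11 tissues (columns); black dots mark an adjusted p under 0.05, and grey marks a gene that was not tested. Brainstem carries 20 dots and cerebellum 12; the blue of the synthesis block is deepest in brainstem, and Insig1 has 5 dots.

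In Q175 brainstem the enzymes of cholesterol synthesis were lower nearly throughout the pathway. Of 19 synthesis genes 16 fell and none rose, with a median log2 change of -0.33, against -0.00 over all 16563 genes tested. Over all 31 members 18 were lower and 2 higher; 3.07% of all genes were called in brainstem, 1.002% lower and 2.07% higher. Among 11 members, 10 of them synthesis genes, every Q175 library lay below every wild-type library, which held for 0.392% of all genes.

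Mvd, which decarboxylates mevalonate diphosphate, had 12.99 to 16.6 CPM (median 14.5) in Q175 libraries, against 18.8 to 25.3 CPM (median 21.4) in wild-type libraries (log2 fold change -0.60 ± 0.06 (SE), adjusted p = 2.75e-05). The groups did not overlap, and this was the deepest fall of the synthesis genes in brainstem. Earlier in the pathway, Acat2, the cytosolic thiolase, had 55.5 to 66.1 CPM (median 58.95) in Q175 libraries, against 68.6 to 84.8 CPM (median 70.99) in wild-type libraries (log2 fold change -0.29 ± 0.05 (SE), adjusted p = 0.00111), again without overlap. Hmgcs1 had 276 to 430.0 CPM (median 304) in Q175 libraries, against 379.9 to 429 CPM (median 402) in wild-type libraries (log2 fold change -0.36 ± 0.07 (SE), adjusted p = 0.00838). Its groups overlapped through 1 library, Q175 female 4 at 430 CPM, while the other Q175 libraries reached at most 318 CPM. Mvk, the mevalonate kinase, also fell (log2 fold change -0.27 ± 0.06 (SE), adjusted p = 0.0144), whereas Pmvk, the next kinase, had 28.2 to 30.4 CPM (median 29.3) in Q175 libraries, against 27.5 to 40.4 CPM (median 30.7) in wild-type libraries, an overlap, and did not pass (adjusted p = 0.277).

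Of the isoprenoid and squalene steps all but Ggps1 fell. Idi1, which isomerizes isopentenyl diphosphate, had 82.1 to 101 CPM (median 86.4) in Q175 libraries, against 107 to 134 CPM (median 121) in wild-type libraries (log2 fold change -0.44 ± 0.05 (SE), adjusted p = 5.42e-05), with the groups apart. Fdps fell by a similar amount (-0.43 ± 0.07, adjusted p = 0.00159). Ggps1, whose product leaves the sterol route for protein prenylation, had 37.2 to 48.7 CPM (median 45.6) in Q175 libraries, against 32.6 to 49.2 CPM (median 42.6) in wild-type libraries, a full overlap (adjusted p = 0.537). Fdft1, the squalene synthase and the step that commits farnesyl diphosphate to sterols, had 95.04 to 113 CPM (median 102) in Q175 libraries, against 122 to 163 CPM (median 133) in wild-type libraries (log2 fold change -0.40 ± 0.05 (SE), adjusted p = 0.000211). Sqle had 69.4 to 87.2 CPM (median 76.8) in Q175 libraries, against 95.3 to 109 CPM (median 97.7) in wild-type libraries (log2 fold change -0.38 ± 0.05 (SE), adjusted p = 7.02e-05). The Q175 libraries of Fdft1 and of Sqle were all below the wild-type libraries. Lss, which closes squalene epoxide into lanosterol, fell with an overlap of the groups (-0.33 ± 0.05, adjusted p = 0.00104).

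Among the enzymes that turn lanosterol into cholesterol, Cyp51, the lanosterol demethylase, had 91.9 to 107 CPM (median 96.7) in Q175 libraries, against 121 to 148 CPM (median 135) in wild-type libraries (log2 fold change -0.46 ± 0.05 (SE), adjusted p = 1.03e-05). Msmo1 had 94.2 to 112 CPM (median 103) in Q175 libraries, against 127 to 170.1 CPM (median 137) in wild-type libraries (log2 fold change -0.45 ± 0.05 (SE), adjusted p = 7.58e-05). Neither gene overlapped between genotypes. Nsdhl and Hsd17b7, which act with Msmo1 in demethylation, also fell (-0.32 ± 0.04 and -0.24 ± 0.06; adjusted p = 0.000195 and 0.0197). Tm7sf2, a sterol reductase, and Sc5d, a sterol desaturase, were the smallest called falls of the pathway together with Hsd17b7 (-0.26 ± 0.06 and -0.21 ± 0.04). Ebp, the sterol isomerase, had 18.1 to 20.01 CPM (median 19.4) in Q175 libraries, against 18.03 to 24.7 CPM (median 19.2) in wild-type libraries and did not pass (adjusted p = 0.512). Dhcr7, which reduces the last intermediate of one branch, had 39.5 to 44.8 CPM (median 41.7) in Q175 libraries, against 47.1 to 59.5 CPM (median 52.1) in wild-type libraries (log2 fold change -0.35 ± 0.04 (SE), adjusted p = 7.58e-05), without overlap.

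**Figure D3:**
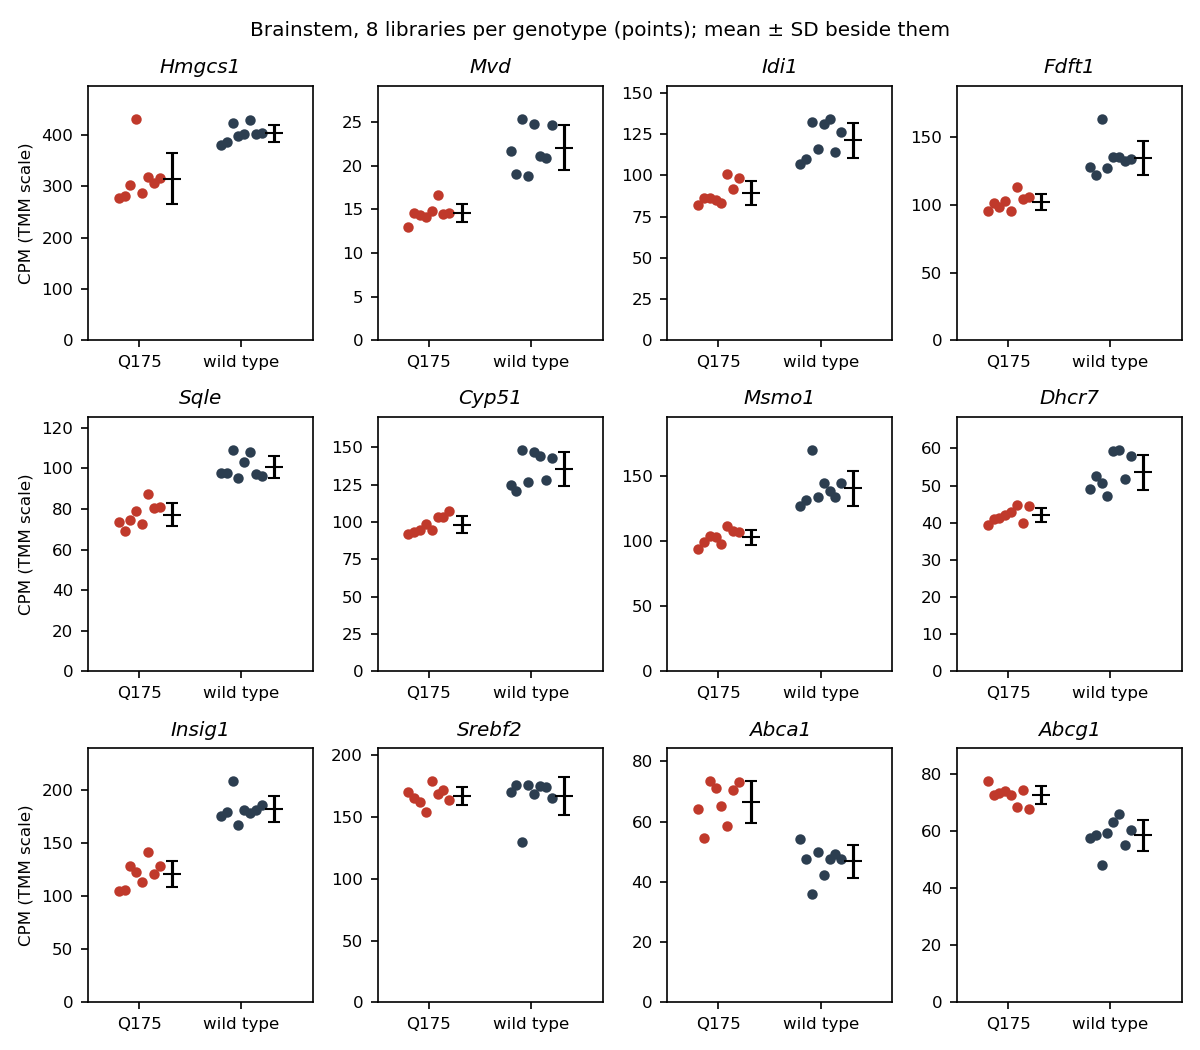
CPM on the TMM scale in brainstem for 12 of the genes, 1 point per library, Q175 left of wild type, with mean ± SD (n = 8 each) beside the points. The Q175 points of Mvd, Idi1, Fdft1, Sqle, Cyp51, Msmo1, Dhcr7 and Insig1 lie below all wild-type points, those of Abca1 and Abcg1 lie above, and those of Srebf2 overlap; 1 Q175 library of Hmgcs1 lies at 430 CPM.

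Of the sensor genes, Insig1 fell. Insig1, which is also a target of SREBP2, had 105 to 141 CPM (median 122) in Q175 libraries, against 167 to 208 CPM (median 180.1) in wild-type libraries in brainstem (log2 fold change -0.59 ± 0.06 (SE), adjusted p = 1.03e-05). The lowest wild-type library exceeded the highest Q175 library. Insig2, the sister gene that is not driven by SREBP2 in the same way, had 58.5 to 65.7 CPM (median 61.99) in Q175 libraries, against 57.9 to 67.1 CPM (median 59.2) in wild-type libraries (adjusted p = 0.598). Srebf2 had 154 to 179 CPM (median 167) in Q175 libraries, against 130.2 to 176 CPM (median 172) in wild-type libraries (log2 fold change 0.00 ± 0.05, adjusted p = 0.986), and Scap had 72.9 to 84.9 CPM (median 79.1) in Q175 libraries, against 61.5 to 75.5 CPM (median 73.9) in wild-type libraries (adjusted p = 0.121). The groups of these 3 genes overlapped and none passed the test.

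The export genes Abca1 and Abcg1 rose. Abca1, which loads cholesterol onto apolipoproteins, had 54.7 to 73.4 CPM (median 67.9) in Q175 libraries, against 36.01 to 54.3 CPM (median 47.7) in wild-type libraries in brainstem (log2 fold change 0.50 ± 0.08 (SE), adjusted p = 0.000803). Abcg1, which passes cholesterol to lipoprotein particles, had 67.8 to 77.5 CPM (median 72.99) in Q175 libraries, against 48.04 to 66.01 CPM (median 59.1) in wild-type libraries (log2 fold change 0.31 ± 0.05 (SE), adjusted p = 0.00172). Every Q175 library exceeded every wild-type library for both, as did 0.857% of all genes. The receptors that drive them did not pass: Nr1h2 had 41.8 to 54.6 CPM (median 46.1) in Q175 libraries, against 42.4 to 52.04 CPM (median 47.6) in wild-type libraries, and Nr1h3 had 3.83 to 4.77 CPM (median 4.26) in Q175 libraries, against 3.49 to 5.03 CPM (median 4.16) in wild-type libraries. Mylip, a further liver X receptor target, had a log2 change of 0.07 ± 0.06 (adjusted p = 0.586). Stard4, a cytosolic sterol carrier that SREBP2 drives, fell (log2 fold change -0.31 ± 0.06 (SE), adjusted p = 0.00950), with an overlap of the groups. Soat1, which esterifies cholesterol, and Cyp46a1 did not pass (0.14 ± 0.07 and -0.12 ± 0.05; adjusted p = 0.396 and 0.252).

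The brainstem library of wild-type female 3, which leaned with gene length, was the highest of its group for 14 members, Insig1, Fdft1, Msmo1 and Fdps among them, and the lowest for others, such as Abca1, Abcg1 and Srebf2. Without it, all 20 calls stayed, and the log2 change of Insig1 was -0.56 ± 0.05 and that of Abca1 0.45 ± 0.06. With the spread estimated over all 11 tissues at once (limma voom), 5 of the 20 passed: Mvd, Idi1, Cyp51, Msmo1 and Abca1, where 0.290% of all genes did.

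Promoters of these genes are shown because the synthesis genes moved together. RefSeq windows (GRCm38.p6) of 300 bases, 250 before the start of transcription and 50 after it, were at hand for 26 of the 31 members. The CCAAT box (CCAAT on either strand), bound by NF-Y, a partner of SREBP2, stood in at least 1 window of 15 of 16 synthesis genes and of 6 of 10 other members, against 42.4% of the 12224 genes tested in brainstem that had a window and 41.1% of all 27025 genes. The GC box (GGGCGG on either strand) stood in 22 of 26 members, against 66.0% of the genes tested in brainstem. The sterol response element searched (TCACNCCAC on either strand) stood in 1 of 26, Hmgcs1, from 137 to 129 bases before the start, against 1.39% of the genes tested in brainstem. The liver X receptor repeat (GGTCA, 5 free bases, GGTCA, on either strand) stood in no member and in 0.0491% of those genes. Only exact matches to these strings were counted, so a site that differs by 1 base was missed. A window without a match may therefore still hold a site. The 5 windows below, 5′ to 3′ on the gene's strand, mark CCAAT boxes (ATTGG where on the other strand) in capitals. Exact matches to the sterol response element are in capitals too. The first 4 belong to genes that fell in brainstem, and Abca1, which rose, holds an exact match to neither.
Hmgcs1 promoter, chr13:119690101-119690400 (plus strand): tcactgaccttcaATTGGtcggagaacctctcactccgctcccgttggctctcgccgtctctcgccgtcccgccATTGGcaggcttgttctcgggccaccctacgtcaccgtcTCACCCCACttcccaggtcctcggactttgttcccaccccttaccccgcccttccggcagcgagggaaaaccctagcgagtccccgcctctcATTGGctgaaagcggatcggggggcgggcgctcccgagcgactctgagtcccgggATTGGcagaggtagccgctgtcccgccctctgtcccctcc
Mvd promoter, chr8:122443373-122443672 (minus strand): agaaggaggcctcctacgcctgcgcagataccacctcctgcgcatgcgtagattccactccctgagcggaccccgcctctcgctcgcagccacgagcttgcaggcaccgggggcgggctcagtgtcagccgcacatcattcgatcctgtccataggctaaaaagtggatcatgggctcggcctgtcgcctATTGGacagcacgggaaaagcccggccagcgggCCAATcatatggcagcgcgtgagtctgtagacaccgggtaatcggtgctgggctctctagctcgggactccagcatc
Cyp51 promoter, chr5:4104648-4104947 (minus strand): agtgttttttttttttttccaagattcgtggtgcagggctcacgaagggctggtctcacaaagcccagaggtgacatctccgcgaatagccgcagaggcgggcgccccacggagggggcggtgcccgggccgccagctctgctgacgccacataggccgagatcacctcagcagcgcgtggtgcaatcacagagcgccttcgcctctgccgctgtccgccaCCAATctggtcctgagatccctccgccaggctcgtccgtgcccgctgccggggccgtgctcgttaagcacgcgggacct
Insig1 promoter, chr5:28071162-28071461 (plus strand): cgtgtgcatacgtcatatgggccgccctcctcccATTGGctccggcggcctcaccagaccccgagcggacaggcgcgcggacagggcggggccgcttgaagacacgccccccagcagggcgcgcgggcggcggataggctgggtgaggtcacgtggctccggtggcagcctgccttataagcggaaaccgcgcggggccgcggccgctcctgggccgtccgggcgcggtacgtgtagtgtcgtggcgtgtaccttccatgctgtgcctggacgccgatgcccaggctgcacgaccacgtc
Abca1 promoter, chr4:53159846-53160145 (minus strand): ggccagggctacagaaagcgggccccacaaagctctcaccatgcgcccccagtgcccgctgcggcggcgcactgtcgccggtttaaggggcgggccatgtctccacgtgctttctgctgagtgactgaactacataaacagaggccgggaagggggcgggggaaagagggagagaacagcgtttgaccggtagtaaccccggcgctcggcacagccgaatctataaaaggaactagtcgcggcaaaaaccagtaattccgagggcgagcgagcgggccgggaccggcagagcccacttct

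The Hmgcs1 window holds 4 CCAAT boxes and that of Mvd 2, while those of Cyp51 and Insig1 hold 1 each. Hmgcs1 changed by -0.36 ± 0.07 in brainstem and Insig1, with fewer boxes, by -0.59 ± 0.06. Insig1, Cyp51 and Mvk lie on chromosome 5, as Htt does; in RefSeq gene order 103, 234 and 504 protein-coding genes separate them from Htt.

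Genes next to the pathway were also tested in brainstem. Of 8 genes of SREBP processing and of sterol-regulated degradation edgeR called none in brainstem. An unadjusted p under 0.05 was held by 1 of the 8 and by 2357 of all 16563 genes. Of 17 genes of sterol trafficking and oxysterols 1 fell, Tmem97 (log2 fold change -0.27 ± 0.07 (SE), adjusted p = 0.0414), whose product sits in the endoplasmic reticulum and binds sterols. Of 17 genes of fatty acid synthesis under SREBP1, 4 fell and 1 rose, with a median of -0.12. Fads1, a fatty acid desaturase, had 211 to 227 CPM (median 218) in Q175 libraries, against 247 to 264 CPM (median 254) in wild-type libraries (log2 fold change -0.23 ± 0.03 (SE), adjusted p = 0.000144). Acss2, which activates acetate, fell by 0.19 ± 0.04 (SE) on the log2 scale without overlap, and Srebf1, the regulator of this branch and a liver X receptor target, named as the only gene of the list that rose, changed by 0.24 ± 0.06 (adjusted p = 0.0314).

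Cell type markers moved too. The oligodendrocyte list of 17 genes summed to 14582 to 19382 CPM (median 17762) in Q175 libraries, against 18749.7 to 24286 CPM (median 20137) in wild-type libraries in brainstem. The groups overlapped between 18750 and 19382 CPM. Of the 17 genes 8 were lower and none higher, among them Tspan2 (-0.56 ± 0.04); in 6 of the 17 every Q175 library lay below every wild-type library, and the median of the list was -0.09. The astrocyte list of 10 genes summed to 5121 to 5819 CPM (median 5431) in Q175 libraries, against 6129.5 to 6843 CPM (median 6659) in wild-type libraries, without overlap, and the neuron list to 7444 to 8119 CPM (median 7718) in Q175 libraries, against 7676 to 8934 CPM (median 7992) in wild-type libraries. Of the 10 astrocyte genes 4 were lower and none higher, and of the 10 neuron genes none was called. The 19 synthesis genes summed to 1192 to 1403 CPM (median 1277) in Q175 libraries, against 1542 to 1768 CPM (median 1634) in wild-type libraries. With the oligodendrocyte sum as a term in the model, 18 of the 20 brainstem members were still called, all but Mvk and Tm7sf2, and 3.10% of all genes; the part of astrocytes in the result was not tested.

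**Figure D4:**
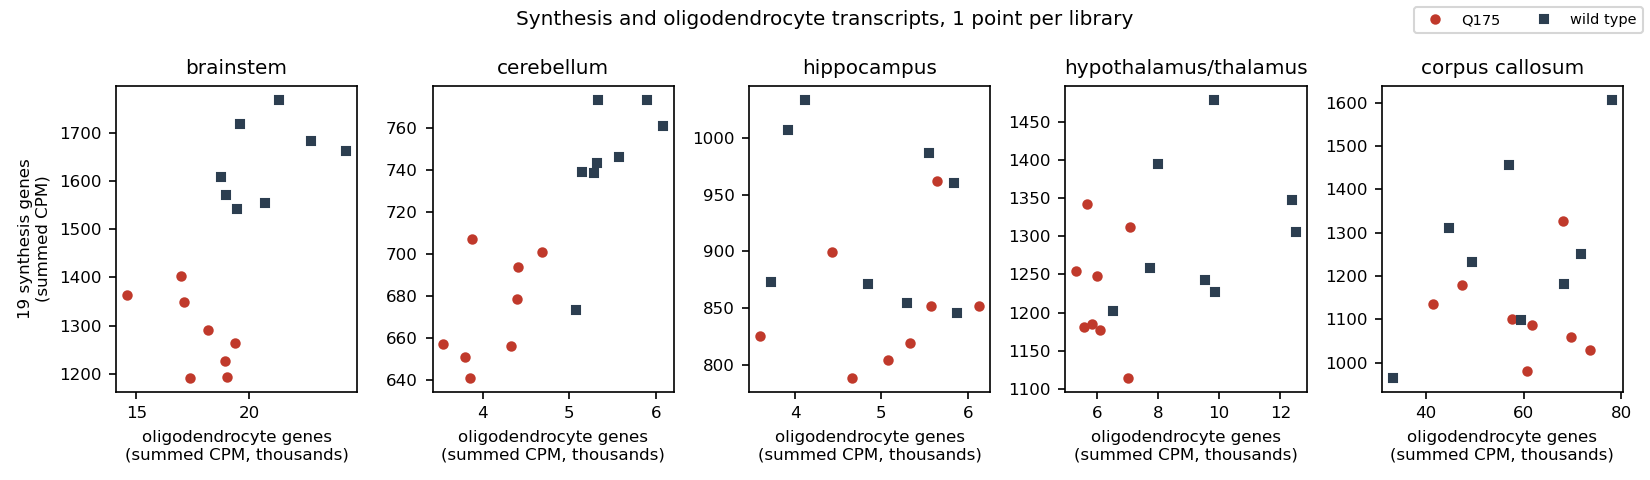
Summed CPM of the 19 synthesis genes (vertical) against summed CPM of the 17 oligodendrocyte genes (horizontal) in 5 brain regions, 1 point per library, Q175 as circles and wild type as squares; the axes do not start at 0. In brainstem the Q175 libraries, 1192 to 1403 CPM, all lie below the wild-type libraries, 1542 to 1768 CPM; in hippocampus and corpus callosum the genotypes overlap on both axes.

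In Q175 cerebellum 12 members were lower and none higher, 10 of 19 synthesis genes plus Insig1 and Cyp46a1; 16.1% of all genes were called in cerebellum, 8.11% lower. The synthesis genes had a median log2 change of -0.15, against -0.00 over all genes. In pathway order the first gene called was Idi1: from Acat2 to Mvd none of the 5 enzymes passed in edgeR, although Hmgcs1 did, lower, with the replicate number as a block, in which Sqle did not (-0.16 and -0.17; adjusted p = 0.0392 and 0.0829). With length and GC trends removed, edgeR called Mvk and Mvd, both higher (0.13 and 0.18; adjusted p = 0.0427 and 0.0421). Mvd had 13.03 to 17.1 CPM (median 15.95) in Q175 libraries, against 12.2 to 16.4 CPM (median 14.1) in wild-type libraries (log2 fold change 0.13 ± 0.06, adjusted p = 0.161). Msmo1 had 34.02 to 41.8 CPM (median 36.1) in Q175 libraries, against 40.4 to 49.3 CPM (median 45.8) in wild-type libraries (log2 fold change -0.33 ± 0.04 (SE), adjusted p = 1.98e-05). Fdft1 had 34.7 to 39.2 CPM (median 36.7) in Q175 libraries, against 38.9 to 48.8 CPM (median 44.7) in wild-type libraries (log2 fold change -0.28 ± 0.04 (SE), adjusted p = 6.32e-05). Both pairs of groups met over only a narrow stretch of CPM. Insig1 had 64.6 to 78.9 CPM (median 70.6) in Q175 libraries, against 71.2 to 105 CPM (median 98.2) in wild-type libraries (log2 fold change -0.37 ± 0.08 (SE), adjusted p = 0.00507). No member had its groups fully apart in cerebellum. Of all 16020 genes, 279 had every Q175 library below every wild-type library and 311 had every one above.

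Cyp46a1, which in the brain is made by neurons, fell in cerebellum (log2 fold change -0.16 ± 0.04 (SE), adjusted p = 0.00724), and edgeR called it in no other tissue. With length and GC trends removed, edgeR no longer called Cyp46a1 in cerebellum. Voom over all tissues called it in corpus callosum (log2 fold change -0.46, adjusted p = 0.000966), where that fit called 6.38% of all genes, and called no member in cerebellum. The neuron list summed to 6256 to 6528 CPM (median 6332) in Q175 libraries, against 6333 to 7060.1 CPM (median 6589.5) in wild-type libraries in cerebellum, and of its 10 genes 5 were lower and 1 higher. The astrocyte list summed to 5038 to 5536 CPM (median 5365) in Q175 libraries, against 5545 to 5882 CPM (median 5737) in wild-type libraries, without overlap, with 6 of 10 genes lower and none higher; the part of neurons and astrocytes in the cerebellum calls was not tested. Abca1 and Abcg1 had changes of 0.07 ± 0.05 and 0.08 ± 0.03 there and did not pass (adjusted p = 0.382 and 0.0716). EdgeR did call Abcg1 there with the lane code of the labels as a term, where 2381 of 16020 genes were called. It did so too with length and GC trends removed (2821 of 16020 genes). Of the 18 members lower in brainstem and the 12 lower in cerebellum, 10 were lower in both, in tissues of the same mice. That was 55.6% of the brainstem list and 83.3% of the cerebellum list. The share of all genes lower in both was not computed, so these percentages have no background to be set against. All 17 oligodendrocyte genes fell in cerebellum, and their sum was 3549 to 4681 CPM (median 4099) in Q175 libraries, against 5077 to 6074 CPM (median 5323) in wild-type libraries, without overlap. With that sum as a term, edgeR called 0 of the 31 members and 3.44% of all genes. The sum itself separated the genotypes, and the SE of the 12 changes widened to 0.060 to 0.158, against 0.028 to 0.081 without the term. Of the 12 changes 10 stayed below 0, with Ebp at -0.22 and Cyp46a1 at -0.19 the lowest, and Sqle and Dhcr7 were at 0.11 and 0.00.

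**Figure D5:**
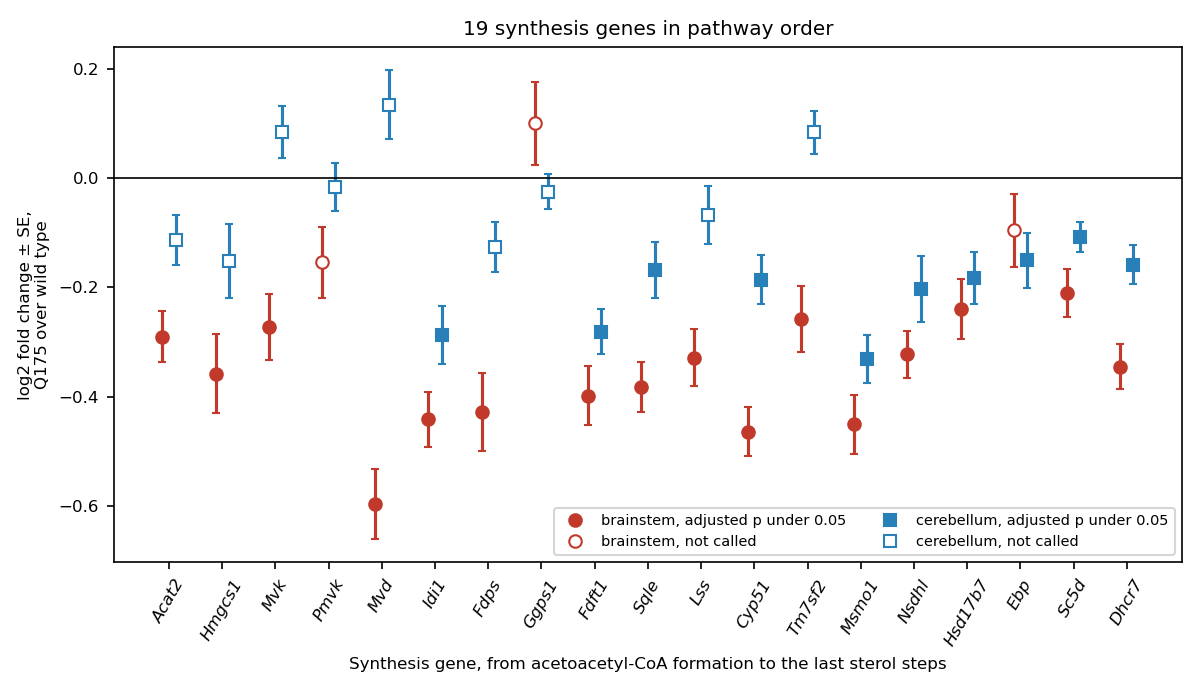
Log2 fold change, Q175 over wild type, with SE, of the 19 synthesis genes in pathway order from left to right, in brainstem (circles) and cerebellum (squares); filled symbols passed an adjusted p of 0.05. In brainstem 16 of 19 are filled and below 0 from Acat2 onward, while in cerebellum 10 are filled, beginning at Idi1, and Mvd lies at 0.13.

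In hippocampus edgeR called 3 members, all lower, and no synthesis gene; 4.56% of all genes were called, 2.60% lower. Insig1 had 46.2 to 57.8 CPM (median 51.8) in Q175 libraries, against 51.1 to 81.8 CPM (median 65.5) in wild-type libraries (log2 fold change -0.36 ± 0.08 (SE), adjusted p = 0.0168). Stard4 had 15.3 to 24.5 CPM (median 19.4) in Q175 libraries, against 20.9 to 27.7 CPM (median 23.7) in wild-type libraries (log2 fold change -0.30 ± 0.07 (SE), adjusted p = 0.0212). Srebf2, which did not pass in brainstem, had 134 to 174 CPM (median 162) in Q175 libraries, against 171 to 188 CPM (median 182) in wild-type libraries (log2 fold change -0.20 ± 0.05 (SE), adjusted p = 0.0241), and its groups met between 171 and 174 CPM; those of Insig1 and Stard4 overlapped more widely. Without the 2 Q175 libraries that leaned with gene length, 10 members were called, all lower, 7 of them synthesis genes, where 5.62% of all genes were called. With all libraries DESeq2 called 9 members, 6 of them synthesis genes, and 7.84% of all genes. No member passed once the lane code entered the model (2.37% of all genes) or under voom over all tissues (0.242%), and 1, Insig2, on unfiltered FPKM (2.20%). In hippocampus only Q175 females 2 and 3 had a code followed by a D number. All other libraries were put together in 1 level, so this term set 2 Q175 libraries apart from the rest. The oligodendrocyte sum was 3593 to 6131 CPM (median 5206) in Q175 libraries, against 3725 to 5871 CPM (median 5068) in wild-type libraries, and none of its genes was called. The astrocyte sum was 5312 to 6344 CPM (median 6044) in Q175 libraries, against 6646 to 7049 CPM (median 6839) in wild-type libraries, without overlap. Of its 10 genes, however, only 1 was called, lower, and the median log2 change of the list was -0.07. The part of astrocytes in the result was not tested.

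In hypothalamus/thalamus 2 members fell, with 0.574% of all genes called and 0.466% lower. Insig1 had 89.9 to 106 CPM (median 97.4) in Q175 libraries, against 113 to 148 CPM (median 131) in wild-type libraries, and the groups did not overlap (log2 fold change -0.42 ± 0.06 (SE), adjusted p = 0.00281). Dhcr7 had 31.9 to 38.7 CPM (median 34.4) in Q175 libraries, against 35.9 to 44.6 CPM (median 40.8) in wild-type libraries (log2 fold change -0.22 ± 0.05 (SE), adjusted p = 0.0443), and it lost the call when any 1 of 11 of the 16 libraries was left out. The oligodendrocyte sum was 5334 to 7098 CPM (median 5924) in Q175 libraries, against 6546 to 12499.8 CPM (median 9688) in wild-type libraries, and with that sum as a term neither gene was called. In corpus callosum edgeR called none of the 31 and 0.0544% of all genes. An unadjusted p under 0.05 was held by 9 of the 31 and by 3150 of all 16540 genes. DESeq2 called 1 member, Hsd17b7, and 1.22% of all genes. Hsd17b7 had 17.1 to 23.6 CPM (median 20.96) in Q175 libraries, against 21.5 to 32.3 CPM (median 27.3) in wild-type libraries there (log2 fold change -0.33 ± 0.08 (SE), adjusted p = 0.209), and Insig1 had 94.7 to 124 CPM (median 115) in Q175 libraries, against 99.6 to 178 CPM (median 137) in wild-type libraries (adjusted p = 0.221). Neuron genes summed there to 878 to 4198 CPM (median 2569.8) in Q175 libraries, against 2259 to 4889 CPM (median 3925) in wild-type libraries, and their part was not tested.

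Whether regions differed was tested directly. Over the 5 brain regions, 1 member passed in the voom fit of all tissues, Abca1 (adjusted p = 0.0371), where 2.54% of all genes did. Its change was 0.50 ± 0.08 in brainstem and 0.15 ± 0.13 in corpus callosum, against -0.13 ± 0.14 in hypothalamus/thalamus, -0.08 ± 0.11 in hippocampus and 0.07 ± 0.05 in cerebellum. In that fit no member differed between brainstem and cerebellum or between brainstem and hippocampus (5 and 7 members at an unadjusted p under 0.05; 0.0920% and 0.126% of all genes passed). Fitted over the 5 brain regions only, a choice made after seeing the data, 11 members differed, with 14.3% of all genes doing so. In this fit the change of Mvd was lower in brainstem than in cerebellum, by -0.73 ± 0.13 (SE) on the log2 scale (adjusted p = 0.000350). So were the changes of Mvk (-0.36 ± 0.09) and Tm7sf2 (-0.35 ± 0.09), where 0.694% of all genes passed. Mvd did not fall in cerebellum: its change there was positive in edgeR and did not pass. Insig1 and the other 16 synthesis genes did not pass between these 2 regions, which does not show that they responded alike. Between brainstem and hippocampus, Abca1 (0.60 ± 0.16) and Dhcr7 (-0.33 ± 0.08) differed, with 0.650% of all genes. Between brainstem and hypothalamus/thalamus 6 members differed, with 0.424% of all genes: Fdft1, Sqle, Acat2, Fdps and Mvk, with differences of -0.51 to -0.30, and Abca1 (0.64 ± 0.16). Between brainstem and corpus callosum Insig1 (-0.36 ± 0.11), Dhcr7 (-0.32 ± 0.08) and Mvd (-0.45 ± 0.13) differed, with 5.50% of all genes.

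Among the peripheral tissues, calls were made in skin, gonadal white adipose and brown adipose. Skin had 5 calls, 3 higher and 2 lower; 6.53% of all genes were called, 2.50% higher and 4.03% lower. Fdps had 304 to 369 CPM (median 328) in Q175 libraries, against 226 to 280.1 CPM (median 251) in wild-type libraries in skin (log2 fold change 0.38 ± 0.07 (SE), adjusted p = 0.0165), without overlap and opposite to its fall in brainstem. Mvk and Scap were also higher (0.27 ± 0.07 and 0.24 ± 0.07; adjusted p = 0.0402 and 0.0488), but lost the call in 11 and 12 of the 14 fits that left out 1 library; Insig1 and Abca1, described next, each lost it in 5. Insig1 had 27.2 to 50.5 CPM (median 39.3) in Q175 libraries, against 32.5 to 128 CPM (median 60.8) in wild-type libraries (log2 fold change -0.84 ± 0.19 (SE), adjusted p = 0.0290), and the wild-type libraries spread widely. Abca1, higher in brainstem, had 52.1 to 78.1 CPM (median 63.1) in Q175 libraries, against 66.5 to 94.2 CPM (median 86.03) in wild-type libraries in skin (log2 fold change -0.40 ± 0.09 (SE), adjusted p = 0.0276). The keratinocyte list of 5 genes summed to 25605 to 35315 CPM (median 27665) in Q175 libraries, against 10506 to 22118 CPM (median 18996) in wild-type libraries and the adipocyte list of 6 genes to 586 to 1403 CPM (median 890.3) in Q175 libraries, against 1148 to 2597 CPM (median 1727) in wild-type libraries; their part in these calls was not tested. With a term for the L code of the labels, read here as a lane although the labels do not call it one, Fdps alone of the 5 was called (1.60% of all genes). With each library left out in turn the count ran from 1 to 7.

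In gonadal white adipose 10 members were called, 7 lower and 3 higher; 32.1% of all genes were called, 16.7% lower and 15.4% higher. Soat1 had 17.5 to 24.03 CPM (median 19.1) in Q175 libraries, against 10.8 to 16.3 CPM (median 12.2) in wild-type libraries (log2 fold change 0.62 ± 0.09 (SE), adjusted p = 0.000698), without overlap. Pmvk had 26.97 to 44.2 CPM (median 32.1) in Q175 libraries, against 41.7 to 76.4 CPM (median 47.6) in wild-type libraries (log2 fold change -0.66 ± 0.15 (SE), adjusted p = 0.00505). The adipocyte list summed to 12699.8 to 24898 CPM (median 17994) in Q175 libraries, against 19984 to 29019.5 CPM (median 24885) in wild-type libraries and the microglia list to 624 to 803 CPM (median 707.4) in Q175 libraries, against 304 to 765 CPM (median 414) in wild-type libraries. Stard4 rose and Nr1h3 fell (0.67 ± 0.18 and -0.33 ± 0.11; adjusted p = 0.0129 and 0.0323). Without the 4 male Q175 libraries that held epididymal transcripts, edgeR called 0 of the 31 and 17 of 16249 genes. In that fit 12 members had an unadjusted p under 0.05, as did 3291 of 16249 genes. With the lane code as a term edgeR called 0 of the 31 and 561 of 16049 genes. That code went partly with genotype, as all L1 libraries were wild type and most L2 libraries Q175, so the 2 cannot be fully separated. In brown adipose Abcg1 had 6.32 to 15.2 CPM (median 9.50) in Q175 libraries, against 4.35 to 9.07 CPM (median 6.75) in wild-type libraries (log2 fold change 0.50 ± 0.13 (SE), adjusted p = 0.0279), the only call there, with 5.41% of all genes called and 0.569% higher; skeletal muscle genes summed to 49.5 to 704.4 CPM (median 385) in Q175 libraries, against 67.8 to 16535 CPM (median 3360.5) in wild-type libraries in the same libraries, and their part was not tested.

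In intestinal white adipose, gastrocnemius and heart edgeR called none of the members, with 0%, 0.0213% and 0.0549% of all genes called, and DESeq2 none; 4, 2 and 4 members had an unadjusted p under 0.05. Cyp46a1 was too low to test in gastrocnemius. Insig1 had 10.8 to 15.9 CPM (median 13.6) in Q175 libraries, against 13.3 to 18.4 CPM (median 16.4) in wild-type libraries in heart (log2 fold change -0.26 ± 0.08, adjusted p = 0.321). Abca1 had 16.7 to 27.5 CPM (median 23.3) in Q175 libraries, against 22.1 to 34.3 CPM (median 28.4) in wild-type libraries in gastrocnemius (adjusted p = 0.694).

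Over all 11 tissues the response to genotype differed for 17 members (limma voom, moderated F-test), where 34.4% of all genes did. Pmvk (adjusted p = 0.000128), Sqle (0.000180), Idi1 (0.000187) and Stard4 (0.000190) had the smallest values. Stard4 changed by -0.31 ± 0.06 in brainstem and by 0.67 ± 0.18 in gonadal white adipose. Hmgcs1, Acat2 and Sc5d were farthest from the threshold (adjusted p = 0.328, 0.619 and 0.656). Males and females were compared by an interaction term, and edgeR called 0 of 340 pairs. It called 0.231% of all genes in gonadal white adipose and 0% in each other tissue. An unadjusted p under 0.05 was held by 33 of the 340 pairs. Over all genes it was held by 244 of 16686 (intestinal white adipose) to 3532 of 16298 (hippocampus) per tissue. DESeq2 called 5 pairs, Fdps, Nr1h3, Sqle and Stard4 in gonadal white adipose, where it called 3.29% of all genes, and Insig2 in skin, where it called 1.95%.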

How the data were processed

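Polyadenylated RNA was measured in 173 libraries. The authors deposited 2 tables, one of estimated counts per Ensembl gene and one of FPKM (scaled to gene length and library total); 36639 of 38561 identifiers (95.0%) were given a symbol. Per the submitters' processing notes, CASAVA 1.8.2 was used. Which program aligned and counted the reads, on which genome build and with which strand setting, is not given in the sources used here; reads of genes that overlap on opposite strands cannot be told apart.

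Rounded counts were tested per tissue in edgeR 4.0.16 (TMM, filterByExpr, robust quasi-likelihood F-tests, sex and genotype as terms, Benjamini-Hochberg over all genes, called at an adjusted p under 0.05). Contrasts between tissues were fitted in limma 3.58.1 by voom, the animal entering as a correlated block. CPM and log2 fold changes were computed from the deposited counts. Levels between genes used the deposited FPKM. Other software was R 4.3.3, DESeq2 1.42.0, matplotlib 3.10.9 and Python 3.11.15. The models were run on simulated counts drawn independently for each library. That simulation held no animal effect and no trend with gene length, so it does not test how the models handle these. Each library is 1 animal's tissue, so the spread includes that between animals; depth was 28 to 48 M per library.

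The members, gene lists and tests were chosen with earlier results of these data known. All members could be named; up to 4 genes of smallest p were named from each other list. Alternatives were DESeq2, RLE scaling, the replicate number as a block, a lane term, models without the sex term or the filter, FPKM with limma (log2 of FPKM plus 1 or 0.1), voom over all tissues, removal of length and GC trends, the oligodendrocyte sum as a term, and each library left out. The lane code is a code in the labels that starts with L, and the labels do not call it a lane. Libraries whose code had no D number after it were put together in 1 level, most brain libraries among them. Added after seeing the data were fits without libraries that leaned with length or held epididymal transcripts, and voom over brain regions only. The promoter sequences are from RefSeq (GRCm38.p6).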

Additional observations from a re-analysis of the deposited data

Results flagged for a closer look

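In 14 of 106 groups of called genes and tissues 1 library stood far from the rest of its group; chance flags about 1 in 20 groups. The brainstem library of wild-type female 3 accounted for 6 of them, all high: Acat2 at 84.8 CPM (others 68.6 to 75.7); Fdft1 at 163 CPM (others 122 to 135); Fdps at 100 CPM (others 66.3 to 81.9); Insig1 at 208 CPM (others 167 to 186); Msmo1 at 170 CPM (others 127 to 145); Mvk at 25.6 CPM (others 18.3 to 21.5). In Q175 brainstem, female 4 had Hmgcs1 at 430 CPM (others 276 to 318) and female 2 had Sc5d at 64.3 CPM (others 72.4 to 79.6). In cerebellum, Q175 female 1 had Msmo1 at 41.8 CPM (others 34 to 37.4) and Q175 male 3 had Sc5d at 48.7 CPM (others 52 to 53.9), while wild-type female 1 had Dhcr7 at 22.1 CPM (others 24.3 to 26.1) and Idi1 at 45.3 CPM (others 54.5 to 61.9). In gonadal white adipose, wild-type female 1 had Insig2 at 57.1 CPM (others 68.1 to 75.8) and Stard4 at 20.8 CPM (others 11.4 to 15.1).

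The response to genotype differed over the 11 tissues for 17 genes (limma voom, moderated F-test), with these adjusted p-values: Pmvk (0.000128), Sqle (0.00018), Idi1 (0.000187), Stard4 (0.00019), Msmo1 (0.00052), Dhcr7 (0.000704), Abca1 (0.000862), Mvk (0.00132), Ebp (0.00174), Soat1 (0.00217), Insig2 (0.00234), Cyp51 (0.00499), Ggps1 (0.0218), Fdps (0.0223), Insig1 (0.0229), Scap (0.0358), Tm7sf2 (0.0438). Over the 5 brain regions it differed for Abca1, with an adjusted p of 0.0371.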

How the results depend on the processing

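Of the 20 brainstem calls, 16 to 20 were also made under each alternative tried other than voom over all tissues (5); removal of length and GC trends added Scap. Counts that moved elsewhere follow. Cerebellum had 0 with the oligodendrocyte sum as a term and 0 under voom. Ebp lost its cerebellum call also with the lane code, with length and GC trends removed, without a filter and on FPKM. Hippocampus had 9 under DESeq2, 0 with the lane code as a term, 6 with length and GC trends removed, 1 on unfiltered FPKM, 0 under voom and 10 without the libraries that leaned with length. Hypothalamus/thalamus had 1 with the lane code, on FPKM (all 3 settings), without a filter, without the sex term or without leaning libraries, and 0 with the oligodendrocyte sum or under voom. Corpus callosum had 1 under DESeq2 and 1 under voom. Brown adipose had 0 with the lane code, on FPKM or without the sex term. It had 4 under voom, which called 1301 of 20662 genes there. Gonadal white adipose had 0 with the lane code, where 561 of 16049 genes were called, and 5 without the sex term (3402 genes). It had 2 without leaning libraries (1440 of 15844 genes) and 0 without those with epididymal transcripts (17 of 16249). Intestinal white adipose had 6 under voom, which called 3712 of 20662 genes there. Skin had 1 with the lane code, 1 on unfiltered FPKM and 10 under voom, which called 3476 of 20662 genes there. The response over 5 brain regions differed for 0 genes with trends removed and for 11 in the fit of brain regions only, which gave 3 between brainstem and cerebellum and 2 between brainstem and hippocampus. DESeq2 called 5 pairs for sex by genotype. The cause of these changes was not tested.

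Replicate numbers did not pair the libraries: the correlation of same-numbered libraries ran from -0.47 to 0.75, and in no tissue did all exceed 0.1. With the number as a block, 16 members were called in brainstem (282 of 16563 genes), 2 in hippocampus (409 of 16298) and 12 in cerebellum (2252 of 16020). The count was 1 each in brown adipose (170 of 14590 genes) and hypothalamus/thalamus (12 of 16739), 3 in gonadal white adipose (2882 of 15988) and 0 in skin.

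With each library left out in turn, the count ran from 18 to 20 in brainstem, 3 to 7 in hippocampus, 9 to 13 in cerebellum, 0 to 2 in brown adipose, 1 to 2 in hypothalamus/thalamus, 1 to 7 in skin and 8 to 12 in gonadal white adipose, and was 0 in the other 4 tissues. It ran from 28 to 29 for brain against periphery, 13 to 23 over 11 tissues and 0 to 2 over 5 brain regions, and was 0 between brainstem and cerebellum or hippocampus. Brainstem Hsd17b7 lost its call without Q175 female 1 or male 3, and Tm7sf2 without Q175 female 3 or male 3. In cerebellum Ebp lost its call in 11 of the 16 fits, Sqle in 6 and Nsdhl in 5.

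Signs turned as follows (log2). With the oligodendrocyte sum as a term, cerebellar Sqle was 0.11 and Dhcr7 0.0049. Gonadal Insig2 was 0.073, 0.076 and 0.073 on FPKM plus 1, plus 0.1 and unfiltered, and Nr1h3 was 0.025 without libraries with epididymal transcripts. For brain minus periphery on FPKM, Fdft1 was 0.24, Acat2 0.27, Fdps 0.56, Pmvk 0.27, Mvk 0.30, Nr1h2 0.046, Sc5d 0.54 and Nsdhl 0.35, and Sc5d was 0.12 under RLE.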
